A study of Mus musculus with 6 samples.

Results

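The major urinary proteins (Mup) were followed through 8 genes, Mup1, Mup2, Mup3, Mup5, Mup7, Mup11, Mup20 and Mup21, which are 8 of the 22 rows named Mup and a number among the 56534 rows of the deposited table. The 8 members were chosen by their measured liver values in these same libraries, so their levels and their differences between the groups are given as a description, without a test. The samples were livers of C57BL/6 mice, namely 3 wild-type libraries (CON 1 to 3) and 3 libraries with a knockout of CD36, a fatty acid transporter of the cell surface, in hepatocytes (LKO 1 to 3). All 6 came from animals on a high-fat diet with 60% of its energy as fat for 16 weeks. The identifiers of the members are ENSMUSG00000078683 (Mup1), ENSMUSG00000078688 (Mup2), ENSMUSG00000066154 (Mup3), ENSMUSG00000058523 (Mup5), ENSMUSG00000073842 (Mup7), ENSMUSG00000073834 (Mup11), ENSMUSG00000078672 (Mup20) and ENSMUSG00000066153 (Mup21). The labels do not give the driver of the deletion, the animals' sex or age, or whether each library is a different animal.

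Major urinary proteins are small barrel-shaped proteins of the lipocalin family. The liver secretes them into the blood, from which they pass into urine, where they bind volatile pheromones and release them slowly. Male mouse liver makes more of them than female liver, under the pulsed secretion of growth hormone, which acts through the kinase JAK2 and the transcription factor STAT5b, and under androgens, thyroid hormone and glucocorticoids. The protein MUP20, also called darcin, is a male pheromone that attracts females, and circulating MUP1 is known to fall in obese and diabetic mice. The genes lie in 1 cluster on chromosome 4 that arose by repeated duplication, so most of them are nearly the same sequence.

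How alike the copies are decides which of the single values can be read alone, so the coding sequences are shown first. In the GENCODE M21 annotation the 22 genes follow each other between Slc46a2 and Zfp37 with no other protein-coding gene between them. A total of 16 of them differed from each other by little, with 98.2% to 99.8% coding identity over all 120 pairs, and Mup1, Mup2, Mup7 and Mup11 are in this set. Identity was 82.3% to 94.7% for the other 111 pairs, which involve Mup3, Mup4, Mup5, Mup6, Mup20 or Mup21. Mup11 differed from its closest copy, Mup18, at 1 coding base, Mup1 from Mup12 and Mup2 from Mup15 at 2 bases each, and Mup7 from Mup12 at 4. Mup3 and Mup21 were closest to each other, at 94.7% with 29 bases different, Mup5 was closest to Mup4, at 92.0%, and Mup20 to Mup11, at 91.3%.

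The lines below give 60 coding bases of each member from the GENCODE M21 transcripts, 5′ to 3′, with capitals where a base differs from Mup11. They start at coding base 121 in Mup1, Mup2, Mup5 and Mup7, at 124 in Mup11, Mup20 and Mup21 and at 133 in Mup3, counted from 1 at the start codon. This stretch was picked because, among those aligned without gaps, the members together differed most from Mup11 in it.
Mup11: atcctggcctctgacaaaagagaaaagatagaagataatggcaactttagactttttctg
Mup1: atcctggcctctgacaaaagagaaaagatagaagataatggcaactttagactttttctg
Mup2: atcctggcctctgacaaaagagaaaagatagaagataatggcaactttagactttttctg
Mup7: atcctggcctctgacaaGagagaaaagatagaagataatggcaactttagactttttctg
Mup20: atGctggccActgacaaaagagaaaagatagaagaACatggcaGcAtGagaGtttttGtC
Mup5: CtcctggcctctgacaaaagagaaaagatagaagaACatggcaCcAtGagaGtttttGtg
Mup3: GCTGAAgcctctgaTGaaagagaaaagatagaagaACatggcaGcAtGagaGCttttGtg
Mup21: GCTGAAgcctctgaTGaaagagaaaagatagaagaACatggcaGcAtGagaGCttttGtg
Mup1 and Mup2 were the same as Mup11 over this stretch and Mup7 differed at 1 base, whereas Mup5 differed at 8, Mup20 at 10 and Mup3 and Mup21 at 16 each. Differences are denser here than over the whole coding sequence, where Mup11 differed from Mup20 at 47 aligned positions. There it differed from Mup5 at 53, from Mup21 at 83 and from Mup3 at 91. Across a whole transcript, 100 bases were taken at every start position and looked up in the other 21 Mup genes. Such stretches were found in no other Mup gene for 2.66% of positions in Mup2, 12.8% in Mup1, 14.6% in Mup7 and 16.5% in Mup11. The shares were 95.5% in Mup21, 97.1% in Mup3, 98.7% in Mup5 and 100% in Mup20. How reads that fit several copies were divided is not given in the sources used here, so the values of Mup1, Mup2, Mup7 and Mup11 are uncertain one by one, and the sum over the family is the firmer quantity.

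**Figure D1:**
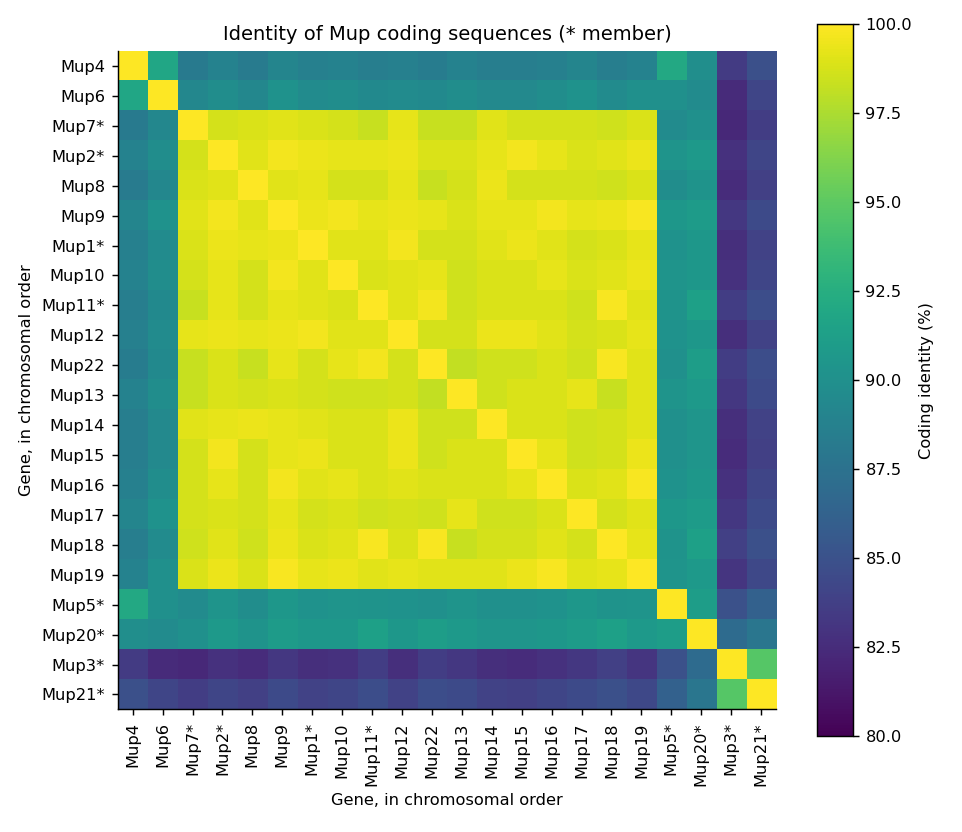
Coding identity in percent between all pairs of the 22 Mup genes, in chromosomal order on both axes, with members marked by a star. The 16 near-identical copies form 1 block at 98.2% or more, with Mup4 and Mup6 on one side and Mup5, Mup20, Mup3 and Mup21 on the other.

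The libraries differed before any Mup gene was compared. Cd36, the deleted gene, was at 61.95, 26.49 and 19.66 FPKM (fragments scaled to the length of the gene and the size of the library) in CON, and at 2.73, 3.70 and 10.22 FPKM in LKO, here and below in the order of the library numbers. Every library held the Y-linked genes Kdm5d, Uty, Ddx3y and Eif2s3y above 0 and listed Xist at 0. The hepatocyte markers Alb, Apoa1, Ttr, Cps1, Hnf4a and Asgr1 were all present, and of 5 markers of salivary and lacrimal glands, which also make Mup proteins, 4 were listed at 0 in every library. Only Amy1, an amylase that liver also makes, was found, at 123 to 208 FPKM. CON 1 was the lowest of the 6 libraries in 11 of 16 tested male-biased liver genes. It was the highest in 6 of 7 tested female-biased genes. CON 1 was also the highest for the 4 Y-linked genes, 6 of 6 markers of sinusoidal endothelium and 9 of 16 tested growth hormone genes. For stellate cell markers it was the highest in 1 of 6, and for other tested lipocalins in 0 of 9. A high CON 1 was thus not particular to female-biased genes, and the share over all genes was not counted. The share of reads from each cell type is unknown, and in whole liver fewer cells of a type and less RNA per cell cannot be told apart.

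Summed over the 22 genes, Mup transcripts took 6.22%, 15.6% and 22.1% of all FPKM in CON 1, CON 2 and CON 3. In LKO 1, LKO 2 and LKO 3 they took 29.4%, 28.9% and 23.9%. Every LKO library lay above every CON library, but LKO 3 and CON 3 were close, and the 3 CON libraries spread further than the groups' means lay apart. The mean was 14.6% ± 8.0 (SD, n = 3) in CON and 27.4% ± 3.05 (SD, n = 3) in LKO, a difference of 12.8 percentage points. Without CON 1 the difference was 8.55 points. The 8 members alone made up 46.6% to 55.2% of the Mup sum, and the difference in their summed share was 6.06 points.

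The 16 near-identical copies carried most of the sum and most of the difference. Their summed FPKM came to 38796, 128051 and 184202 for CON 1 to 3 and to 307460, 335826 and 200693 for LKO 1 to 3. The LKO mean was 2.40-fold the CON mean, and 1.80-fold without CON 1. The 6 more distant genes summed to 12964, 16578 and 32081 FPKM for CON and to 39318, 31895 and 28604 FPKM for LKO, where CON 3 lay above LKO 2 and LKO 3. Their ratio of means was 1.62-fold, and 1.37-fold without CON 1. A further 27 rows for Mup pseudogenes, of which 17 were above 0, took 0.0519% to 0.638% of a library.

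**Figure D2:**
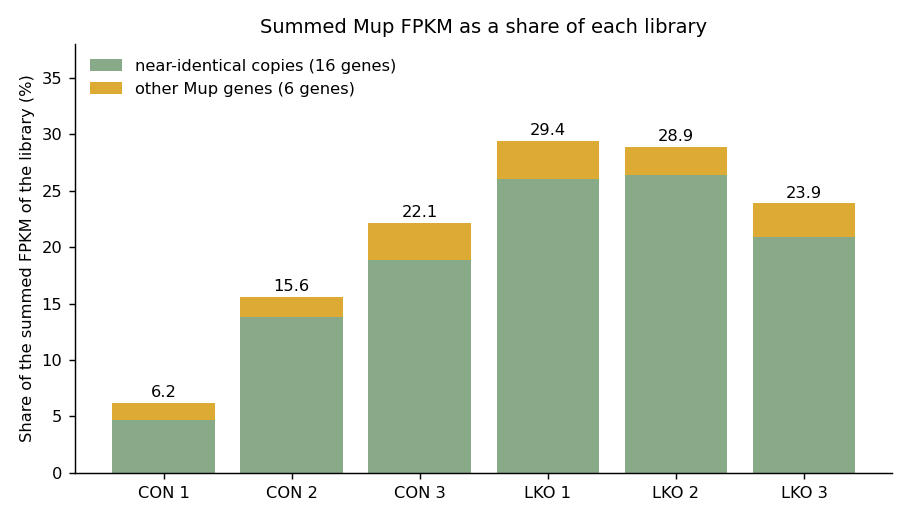
Summed FPKM of the Mup genes as a percentage of the summed FPKM of each library, stacked into the 16 near-identical copies (green) and the 6 other genes (yellow), with the total above each bar. The CON libraries run from 6.22% to 22.1% and the LKO libraries from 23.9% to 29.4%, with the smallest gap between CON 3 and LKO 3.

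Among the near-identical members, Mup11 had the highest mean of the 22 Mup rows over the 6 libraries, with 6822, 20115 and 30065 FPKM in CON against 45352, 44359 and 35919 FPKM in LKO. All 3 LKO libraries lay above all CON libraries, the lowest at 1.19 times the highest CON value. The log2 fold change, on the log2(FPKM + 1) scale, was 1.38 (SE 0.53), and 0.76 without CON 1. Mup7 had 3010, 14555 and 27530 FPKM in CON and 36019, 37132 and 28587 FPKM in LKO. Its CON libraries spread 9.15-fold, and LKO 3 was just 1.04 times CON 3. The log2 fold change of Mup7 was 1.66 (SE 0.73), and 0.75 without CON 1.

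Mup1, the member best known for its link to metabolism, had 2713, 8727 and 12245 FPKM in CON against 26708, 31551 and 12887 FPKM in LKO. LKO 1 and LKO 2 were far above every CON library, and LKO 3 sat beside CON 3, at 1.05 times its value. The log2 fold change was 1.74 (SE 0.60), the largest of the 8 members, and 1.10 without CON 1. Mup2 had 2080, 10202 and 17547 FPKM in CON against 26948, 26379 and 19194 FPKM in LKO. Its groups did not overlap either, with a log2 fold change of 1.73 (SE 0.71) that was 0.84 without CON 1. Since Mup1, Mup2, Mup7 and Mup11 share most of their sequence, these 4 values are not 4 separate observations.

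Mup3, which was distinct in sequence from the other Mup genes (pseudogenes were not compared), was spread less between the CON libraries. Its CON libraries held 9364, 9335 and 14815 FPKM and its LKO libraries 16769, 14540 and 13522 FPKM. For Mup3, CON 1 and CON 2 were both lowest and nearly level, the groups overlapped, and the CON values spread 1.59-fold, against 4.41-fold to 9.15-fold for the 4 near-identical members. The log2 fold change of Mup3 was 0.45 (SE 0.29), and -0.40 when the libraries were brought to the same distribution by quantile normalization. Mup21, the closest relative of Mup3, was far lower in level. It had 213, 365 and 610 FPKM in CON against 1133, 1013 and 529 FPKM in LKO, with LKO 3 inside the CON range. Its log2 fold change was 1.22 (SE 0.43), and 0.84 without CON 1.

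Mup20, which encodes the pheromone darcin, had 3376, 6826 and 16580 FPKM in CON against 21321, 16257 and 14479 FPKM in LKO. CON 3 lay above LKO 2 and LKO 3, so the groups overlapped. The log2 fold change of Mup20 was 1.24 (SE 0.54), and 0.69 without CON 1. Mup5 was listed at values close to 0, with 0.16, 0.75 and 1.26 FPKM in CON against 4.54, 3.37 and 2.17 FPKM in LKO. All LKO values of Mup5 lay above all CON values, the lowest at 1.72 times the highest CON value, which was the widest gap of the 8. Its log2 fold change was 1.35 (SE 0.31) with 1 FPKM added and 2.31 with 0.1 added. In every library it lay far below the other 7 members.

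**Figure D3:**
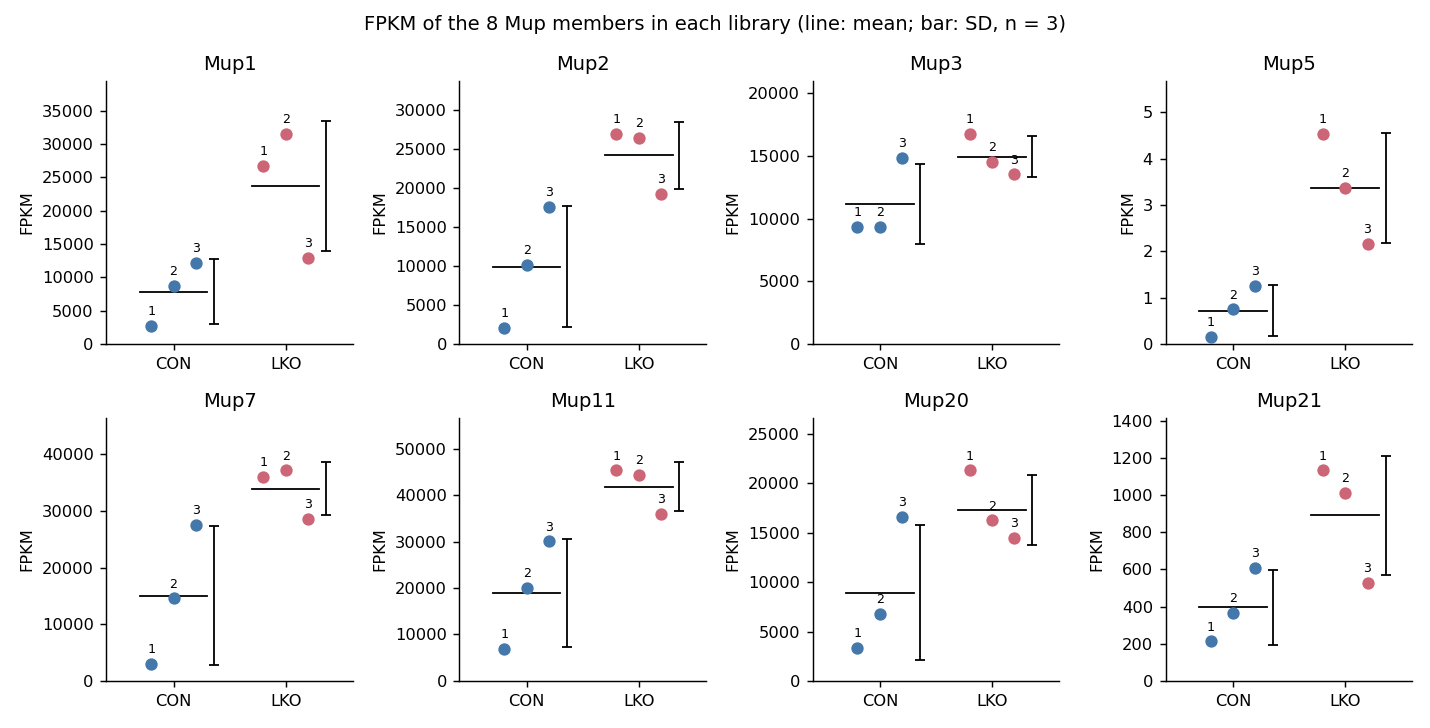
FPKM of each member in each library, numbered 1 to 3 within CON (blue) and LKO (red), with a line at the group mean and a bar for the SD (n = 3), on separate linear axes from 0. LKO lies above CON in all libraries for Mup1, Mup2, Mup5, Mup7 and Mup11, and the groups overlap for Mup3, Mup20 and Mup21.

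In all, 5 of 8 members had every LKO library above every CON library and 3 overlapped. Across all 11104 genes with a mean of at least 1 FPKM, 3.92% lay apart in that direction and 24.3% in the other, but the members were chosen by this contrast and nothing is read from the count. The median log2 fold change was 1.37 over the 8 members and -0.23 over all genes tested. CON 1 was the lowest library for 7 of the 8 members, and Mup3 was lowest in CON 2. Without CON 1 all 8 values stayed above 0, between 0.34 and 1.10, with a median of 0.80. Without LKO 3, the LKO library with the highest Cd36, they were between 0.52 and 2.13. Mup3, Mup20 and Mup21 were higher in CON 3 than in LKO 3.

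The 14 other Mup rows were described only by range, apart from those with a mean of at least 10 FPKM, which were 13. Of these, Mup18 (mean 16982 FPKM in CON and 34280 FPKM in LKO), Mup13, Mup22, Mup14, Mup15, Mup19, Mup17, Mup16, Mup9, Mup10, Mup12, Mup8 and Mup6 all had a positive log2 fold change, from 0.52 in Mup22 to 3.32 in Mup17. In 8 of the 14 rows every LKO library lay above every CON library. These include Mup4, whose mean was too low for it to be among the genes tested, of which 3.92% lay apart in that direction. Most of the 14 are near-identical copies that share reads, so the 8 are not separate observations and nothing is read from the count. Mup17 spread most between the CON libraries, with 150, 1363 and 3913 FPKM, and its LKO libraries had 12913, 15860 and 3898 FPKM, so LKO 3 fell just inside the CON range. Mup4, the lowest row, was at 0.17 to 0.53 FPKM in CON and 0.94 to 1.72 FPKM in LKO. Under median-ratio scaling, removal of a length trend or leaving the Mup rows out of the total, all 21 Mup genes tested kept a positive value, and under quantile normalization 19 did, the exceptions being Mup3 and Mup22 (-0.17).

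In CON 1 the make-up of the Mup sum lay outside the range of the other 5 libraries for 17 of the 22 rows, above it for 4 (Mup3, Mup10, Mup21 and Mup22) and below it for 13. Most of these rows are near-identical copies whose single values are uncertain, and shares of a sum move together. The same count was not made for the other libraries. Mup3 made up 18.1% of the sum in CON 1, where it was the highest of the 22 rows, and 6.45%, 6.85%, 4.84%, 3.95% and 5.90% in CON 2, CON 3, LKO 1, LKO 2 and LKO 3. Mup22, which had no 100-base stretch of its own, made up 15.9% in CON 1 and 5.18% to 9.78% in the others. Mup7 went the other way, at 5.81% in CON 1 and 10.06% to 12.7% elsewhere, and Mup2 was at 4.02% in CON 1 and 7.05% to 8.37% elsewhere. Mup11 held 12.1% to 15.7% in all 6 libraries. Mup3 held this share in CON 1 at nearly the same level as in CON 2.

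**Figure D4:**
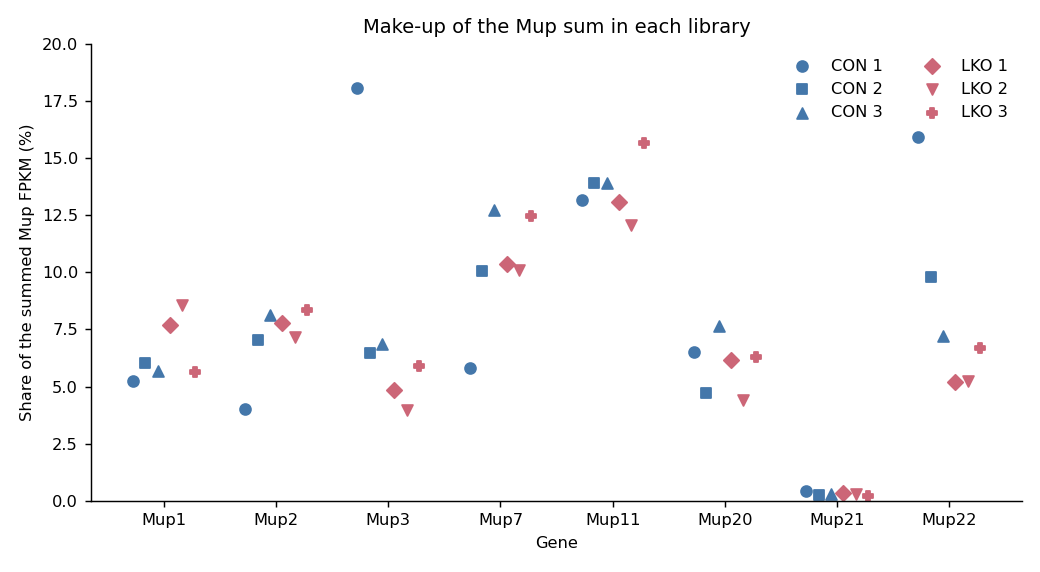
Share of the summed Mup FPKM, in percent, taken by each member and by Mup22 in each library, with CON in blue, LKO in red and a symbol for each library. Mup5 is too low to show and is left out. Mup3 and Mup22 are at 18.1% and 15.9% in CON 1, apart from the other 5 libraries, and Mup11 stays between 12.1% and 15.7%.

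The promoters of the members were searched for known motifs in RefSeq windows of 300 bases (GRCm38.p6, from 250 bases before to 50 after the annotated start), which held Mup2, Mup3, Mup7, Mup11 and Mup21 and 14 Mup genes in all. These windows are of a later build than the mm9 of the submitters' notes. They are shown because the same TATATAA lies near the start in near-identical and more distant members alike. The letters TATATAA, in capitals, began 27, 2, 11 and 8 bases before the annotated start of Mup2, Mup11, Mup3 and Mup21. All 4 are on the minus strand, at chr4:60139867-60139943, chr4:60662381-60662457, chr4:62087312-62087388 and chr4:62150833-62150909 and are written 5′ to 3′.
Mup2: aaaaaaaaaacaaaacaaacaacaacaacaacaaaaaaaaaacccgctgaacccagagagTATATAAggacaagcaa
Mup11: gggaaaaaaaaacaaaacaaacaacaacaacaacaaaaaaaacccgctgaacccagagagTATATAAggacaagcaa
Mup3: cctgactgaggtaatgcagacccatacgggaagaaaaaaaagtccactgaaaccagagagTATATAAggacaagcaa
Mup21: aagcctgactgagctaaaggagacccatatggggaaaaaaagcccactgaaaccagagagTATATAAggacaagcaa
After the motif all 4 read the same to the end of the stretch, and before it Mup2 resembles Mup11 and Mup3 resembles Mup21. On either strand, TATATAA was in 13 of the 14 Mup windows, Mup7 being the exception, and in 3.24% of all 32851 promoter windows. It was picked after the sequences had been seen. The STAT5 motif TTCNNNGAA was in 0 of 14 Mup windows and 8.30% of all, and the C/EBP motif TTGCGCAA in 0 of 14 and 0.183% of all. TATAAA was in 2 of the 14 (Mup4 and Mup6) and 13.6% of all, and AGAACA, the core of the glucocorticoid and androgen receptor element, in 2 (Mup3 and Mup21) and 19.0% of all. A match describes letters in this window only.

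The genes of the growth hormone pathway that drives Mup transcription had mostly negative values. Of 19 listed genes from receptor to STAT5 targets 16 were tested, and of these 3 had a positive and 13 a negative log2 fold change, with a median of -0.51 against -0.23 for all genes. None passed an adjusted p of 0.05 over all genes (limma). At an unadjusted p under 0.05, 0 were higher and 5 lower, where 3.25% of all genes were higher and 18.9% lower, and 0.00901% of all genes passed the adjusted threshold in either direction, 1 gene in all (Gm44002, lower in LKO and named after its value was seen). With median-ratio scaling, which moves the median of all genes from -0.23 to 0.02, 5 of the 16 were positive and the median of the list was -0.25. The median was -0.32 with quantile normalization and -0.17 with a length trend removed, where all genes had medians of -0.02 and 0.0043. Without LKO 3, 2632 of all genes passed (521 higher and 2111 lower), among them 19 of the list genes named here and below, such as Stat3 (-1.70), Stat5a (-0.91), Jak2 (-0.63) and Igf1 (0.77).

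The receptor Ghr had 247, 217 and 174 FPKM in CON against 157, 153 and 169 FPKM in LKO, with a log2 fold change of -0.40 (SE 0.19). Jak2, the kinase bound to that receptor, was at -0.53 (SE 0.19), Stat5a at -0.73 (SE 0.24) and Stat5b, the main STAT5 of hepatocytes, at -0.72 (SE 0.24). Stat3, a related factor that also answers to interleukin 6, was at -1.18 (SE 0.40) and Igfals, which carries IGF1 in blood, at -0.54 (SE 0.18). The adjusted p-values of these 6 genes (limma) were 0.187 to 0.246. With median-ratio scaling Ghr was at -0.10 and Jak2 at -0.33, and with the length trend removed they were at -0.09 and -0.18. The other 4 genes were also closer to 0 there, between -0.91 (Stat3) and -0.25 (Igfals) with the scaling, and between -0.82 and -0.30 with the trend removed. As deposited, all 6 values lay below the median of all genes, but Stat3 and Igfals were named for their small unadjusted p. Of the 16 tested genes of the list, 5 lay above that median. The values of the Mup genes lay above it too, but the members were chosen by this contrast.

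The 3 genes with a positive value included the STAT5 targets Socs2 and Igf1. Socs2, a feedback inhibitor of the growth hormone receptor, had 4.39, 4.10 and 10.05 FPKM in CON against 13.37, 7.14 and 39.05 FPKM in LKO, with a log2 fold change of 1.32 (SE 0.57, limma adjusted p = 0.226) that was 0.69 without LKO 3. Igf1, the growth factor that liver releases under growth hormone, had 338, 471 and 426 FPKM in CON against 670, 720 and 451 FPKM in LKO, with 0.56 (SE 0.24, limma adjusted p = 0.228). Igf1, like the Mup sum, was highest in LKO 1 and LKO 2, but Socs2 was highest in LKO 3, the LKO library with the lowest Mup share. Cish, another feedback inhibitor, was at -0.67 (SE 0.52), and Bcl6, a repressor that favours the male pattern, at -0.68 (SE 0.50). Cux2, which is high in female liver, was at 0.10 FPKM or below in every library and was not tested.

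Other male-biased liver genes, with Mup genes left off the list, were also mostly low in CON 1. Of 16 tested, 13 had a positive log2 fold change and 3 a negative one, with a median of 0.91. None passed over all genes with limma. At an unadjusted p under 0.05, 3 were higher and 1 lower, where 3.25% of all genes were higher and 18.9% lower. Gstp1, a glutathione transferase, had 612, 1573 and 2694 FPKM in CON against 3599, 3618 and 2944 FPKM in LKO (1.29, SE 0.49), and Selenbp2, a selenium-binding protein, had 22.2, 18.3 and 248 FPKM against 323, 137 and 379 FPKM (2.42, SE 0.92). Elovl3, a fatty acid elongase, was at 0.90 (SE 0.27), without a low CON 1, and Ces2e, a carboxylesterase, at -0.95 (SE 0.30). The adjusted p-values of the 4 were 0.180 to 0.205 (limma). The median of the list was 0.43 without CON 1 and 1.39 without CON 3. The summed FPKM of its 17 genes was 3178 in CON 1, 10746 and 12792 in CON 2 and CON 3, and 13501 to 18953 in LKO. Most of the gap between CON 1 and CON 2 lay in 1 gene, named after its values were seen, the protease inhibitor Serpina1e (514, 7002 and 6969 FPKM in CON and 7658 to 12570 FPKM in LKO). Without it the sums were 2665, 3743 and 5822 in CON and 5844 to 6810 in LKO.

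Of 20 female-biased genes, 7 reached a mean of 1 FPKM, and 6 of these had a negative value, with a median of -0.93. The median was -0.65 without CON 1, -1.41 with a pseudocount of 0.1 and -1.43 with a filter at 5 FPKM. The lower ones at an unadjusted p under 0.05 were 4: Acot3, an acyl-CoA thioesterase (-1.59, SE 0.33), Cyp17a1 (-1.26, SE 0.29), Cyp2b9 (-4.00, SE 1.20) and Cyp39a1 (-0.86, SE 0.28), with adjusted p-values of 0.163 to 0.186 (limma). None was higher at that threshold, where 3.25% of all genes were higher and 18.9% lower, and none passed over all genes. Cyp2b9, a cytochrome P450 high in female liver, had 154.7, 12.5 and 2.09 FPKM in CON and at most 0.40 FPKM in LKO. CON 1 had the most of it and the smallest Mup sum. Over all 20 female-biased genes the summed FPKM was 250.3 in CON 1, 64.9 and 49.6 in CON 2 and CON 3, and 22.7 to 37.8 in LKO. Most of the gap between CON 1 and CON 2 lay in Cyp2b9 alone, with 154.7 and 12.5 FPKM of these sums. Whether the differences between CON 1 and the other libraries have a part in the Mup difference was not tested beyond leaving CON 1 out.

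**Figure D5:**
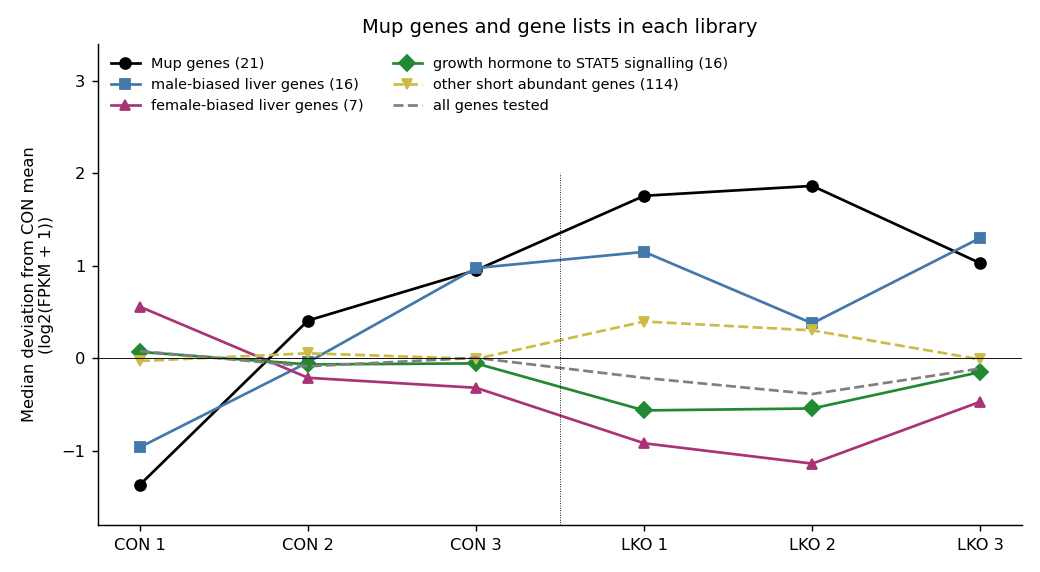
Median deviation of each gene set from its CON mean, on the log2(FPKM + 1) scale, in each library, with the number of genes in brackets. Lines join the libraries only as a guide for the eye. The 21 Mup genes run from -1.37 in CON 1 to 1.87 in LKO 2, male-biased genes are lowest and female-biased genes highest in CON 1, and the growth hormone genes lie below 0 in the 3 LKO libraries, as all genes tested do.

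In the same plot, the median deviation of the 21 Mup genes was -1.37, 0.41 and 0.95 in CON against 1.76, 1.87 and 1.03 in LKO. The male-biased list was at -0.96, -0.04 and 0.98 in CON and 1.15, 0.38 and 1.30 in LKO, so both sets were low in CON 1, and both had CON 3 at or near the level of an LKO library. They differed in LKO 2, the highest for the Mup genes and the lowest LKO library for the other male-biased genes. The growth hormone list was at 0.07, -0.06 and -0.05 in CON and at -0.56, -0.54 and -0.15 in LKO, where all genes tested were at -0.21, -0.38 and -0.11, so in LKO 3 the list was close to them.

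Mup transcripts are short, and gene length moved with the libraries. The 22 rows have deposited lengths of 677 to 1033 bases, equal to the longest GENCODE M21 transcript of each. Across genes, the deviation of a library from the mean was higher for longer genes in CON 1, CON 2, CON 3 and LKO 3 (Spearman's rho 0.27, 0.10, 0.29 and 0.21) and lower for them in LKO 1 and LKO 2 (-0.33 and -0.30). A set of 114 other genes of the same length range and a mean of at least 100 FPKM had a median log2 fold change of 0.26, with 91 of 114 positive, beside 1.61 for the 21 Mup genes tested. With the length trend removed, the members were between 0.39 (Mup3) and 1.67 (Mup1). When LKO 3 is left out, the group and the direction of the length trend cannot be told apart.

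Other factors known to act on Mup genes also had mostly negative values. Of 17 listed regulators 16 were tested, and 15 had a negative value, with a median of -0.62 against -0.23 for all genes. At an unadjusted p under 0.05, 7 were lower and 0 higher, where 18.9% of all genes were lower and 3.25% higher. None passed over all genes with limma. Nr1i3, the nuclear receptor CAR, was at -0.72 (SE 0.17), the prolactin receptor Prlr at -1.35 (SE 0.37), the thyroid hormone receptor Thrb at -0.80 (SE 0.23) and the insulin receptor Insr at -0.71 (SE 0.20), with adjusted p-values of 0.172 to 0.179. With median-ratio scaling 3 of the 16 were positive and the median was -0.33, and with the length trend removed it was -0.30.

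Other lipocalins, relatives of the Mup proteins, had values in both directions. Of 13 listed, 9 were tested, and 3 were positive and 6 negative, with a median of -0.43. At an unadjusted p under 0.05, 1 was lower and none higher, where 18.9% of all genes were lower and 3.25% higher. None passed over all genes with limma. Lcn2, an iron-siderophore carrier of the acute phase, had 11.3, 286 and 46.8 FPKM in CON against 11.6, 8.72 and 11.3 FPKM in LKO (-2.27, SE 0.96, adjusted p = 0.222). Orm2, an acute-phase glycoprotein, had the same high library, with 13.9, 343 and 73.2 FPKM in CON against 20.1, 22.9 and 15.8 FPKM in LKO. Ambp, the precursor of a plasma lipocalin, was at -0.43 (SE 0.25) and Apom, an apolipoprotein, at -0.57 (SE 0.36). Without CON 2, the high library for both, Lcn2 was at -1.08 and Orm2 at -0.70, and the median of the list was -0.13. It was -0.71 without CON 1 and -0.13 with median-ratio scaling.

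Among 28 other abundant plasma proteins, 7 had a positive value and 21 a negative one, and 17 were positive with median-ratio scaling, so their direction depends on the scale. The median was -0.20, near that of all genes, and 0.10 with median-ratio scaling and -0.62 with quantile normalization. At an unadjusted p under 0.05, 1 was higher and 1 lower, where 3.25% of all genes were higher and 18.9% lower. None of the 28 passed the adjusted threshold (limma). Ttpa, the vitamin E transfer protein, was at -0.72 (SE 0.23), Apoa1, the main protein of HDL, at 0.72 (SE 0.25), Saa2, an acute-phase apolipoprotein, at -3.12 (SE 1.49) and Alb, serum albumin, at -0.70 (SE 0.35). Without CON 1, where it was low, Saa2 was at -5.15 and passed over all genes (limma adjusted p = 0.0141), but it was at -2.10 without CON 2 or without CON 3 (limma adjusted p = 0.445 and 0.471), and the adjusted p lay between 0.0141 and 0.488 over all alternatives. Alb had 45751, 28575 and 24911 FPKM in CON against 17441, 16410 and 26682 FPKM in LKO, and was highest in CON 1, where the Mup sum was lowest. On the FPKM scale, which is per length, the Mup11 row exceeded Alb in CON 3 and in all LKO libraries, and stood below it in CON 1 and CON 2. Mup11 shares reads with near-identical copies, so its single value is uncertain.

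Genes of the secretory pathway, which carries such proteins out of the hepatocyte, had a median of -0.02 over 24 tested, with 11 positive. With median-ratio scaling 20 were positive and the median was 0.27, and it was 0.16 with the length trend removed. At an unadjusted p under 0.05, 1 was higher (Sec61b, a translocon subunit, 0.59, SE 0.20) and 1 lower (Srp54a, of the signal recognition particle, -0.88, SE 0.27), and none passed over all genes with limma. At that threshold 3.25% of all genes were higher and 18.9% lower. Sec61g, another translocon subunit, was at 0.52 (SE 0.24) and Sec24d, a COPII coat protein, at 0.38 (SE 0.18). The genes adjoining the Mup cluster on chromosome 4, Slc46a2 and Zfp37, were too low to be tested. The 12 tested genes further out had 11 negative values and a median of -0.42, against -0.23 for all genes. That median was -0.18 with median-ratio scaling, -0.20 with quantile normalization and -0.14 with the length trend removed. At an unadjusted p under 0.05, 2 were lower and 0 higher: the copper transporter Slc31a1 (-0.91, SE 0.27) and Hdhd3, a member of the haloacid dehalogenase family (-0.60, SE 0.25). Fkbp15 was at -0.47 (SE 0.20) and Slc31a2 at -0.43 (SE 0.21), and 0 of the 12 passed over all genes (limma).

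The genes whose level followed the Mup sum most closely over the 6 libraries were ranked among 4102 genes with a mean of at least 10 FPKM, by Pearson's r with the log2 summed Mup FPKM. The highest were Rpl13 (0.998), Glrx (0.990), Gstp1 (0.990), Rpl34 (0.989) and Gstp2 (0.989). Rpl13 and Rpl34 encode ribosomal proteins, Glrx a glutaredoxin, and Gstp1 and Gstp2 are a pair of similar glutathione transferases that can share reads. Gstp2 ran from 3.38 FPKM in CON 1 to 142 FPKM in LKO 2, while Rpl13 ran only from 370 to 541 FPKM. The lowest were Serhl (-0.997), Abcc2, the export pump of bile conjugates (-0.993), Rsu1 (-0.991), Dpp4, a dipeptidase of the cell surface (-0.990), and Tsen34, of the tRNA splicing endonuclease (-0.988). These are descriptions over 6 libraries that share the group difference and CON 1.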

How the data were processed

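Liver RNA of 6 libraries was measured by sequencing, 3 CON and 3 LKO by the labels. The authors deposited 1 table of FPKM per gene, given to 2 decimals. Per the submitters' processing notes, HISAT2, StringTie and the build mm9 were used. The deposited lengths of all 22 Mup rows equal those of GENCODE M21 transcripts, so the annotation may be of a later build than mm9. Which versions, annotation and treatment of reads that fit several genes were used was not given in the sources used here. Depth in reads is unknown, so no count model was fitted and no interval of counting error is given. No value column of the file was left without a sample.

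Genes with a mean of at least 1 FPKM (11104) were taken to log2(FPKM + 1) and fitted with limma 3.58.1 (lmFit, eBayes with trend, group as the only term) in R 4.3.3. P-values are two-sided and were Benjamini-Hochberg adjusted over all genes (threshold 0.05). They measure the spread between libraries, part of which may be technical. SE is moderated, SD is on the FPKM scale. The limma fit was run on simulated data with independent noise for each gene. That simulation held no length trend and no reads shared between copies, so it does not bear on these.

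The members and lists were chosen with earlier results of these data known. The text names all 8 members, the Mup rows with a mean of at least 10 FPKM, 9 fixed genes of growth hormone signalling, up to 4 genes of each list with the smallest unadjusted p, and the 5 genes most and least like the Mup sum, without Gm or Rik symbols. Genes named outside this rule (Gm44002, Serpina1e, Mup4, Cd36, Amy1, the Y-linked genes, Xist and the cell type markers) serve as checks or complete a count. Coding sequences came from GENCODE M21 and were aligned with Biopython 1.88. Promoters came from RefSeq. Alternatives were another pseudocount, filters, scalings, a length trend removed, a replicate block and leaving out each library.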

Additional observations from a re-analysis of the deposited data

How the results depend on the processing

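Of 111 values of the 8 members under 14 alternatives at most, 110 stayed above 0, the exception being Mup3 under quantile normalization (-0.40). The filters and the replicate block cannot change a member's log2 fold change. The members were also chosen by this contrast, so nothing is read from this count. Of the other genes named, Apoa1 turned to -0.0062 under quantile normalization. The share of Mup transcripts was higher in LKO by 12.8 percentage points, by 6.06 with the 8 members only, and by 8.55 (without CON 1) to 16.5 (without CON 3) with 1 library left out. A total of 1 gene passed the threshold over all genes. The count was 0 with a pseudocount of 0.1, 0 with a filter at 5 FPKM, 0 without a filter and 0 with the length trend removed. With 1 library left out it ran from 0 (without LKO 1 or LKO 2) to 2632 (without LKO 3; 521 higher and 2111 lower), and was 3, 2 and 5 without CON 1, CON 2 and CON 3. Without LKO 3, 19 of the listed genes named passed, among them Stat3, Stat5a, Jak2 and Igf1, and without CON 1 Saa2 did (-5.15). The cause was not tested. With the replicate block the count was 0. The Mup difference of 12.8 cannot change under that block, because each number occurs in both groups. After each gene's group mean was subtracted, the deviations of same-numbered libraries correlated across genes at -0.05, 0.17 and 0.07. The numbers are therefore not taken to pair the libraries. Depth is unknown, and near-identical copies share reads, which limits single Mup values.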
